A study of Mus musculus with 60 samples.

Results

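Voltage-gated sodium channel subunits were followed as 7 genes, picked by name out of the 55414 genes of the deposited table. There were 4 genes for the pore-forming α subunits (Scn1a, Scn2a, Scn3a and Scn8a) and 3 genes for the auxiliary β subunits (Scn2b, Scn3b and Scn4b). The libraries are RNA-seq of mPFC, the medial prefrontal cortex, from mice of the inbred strain DBA2/J that express GFP-L10a, a ribosomal protein fused to a fluorescent tag. IP libraries hold RNA recovered with an anti-GFP antibody and carry the cell type label "aPVT projector". Input libraries hold RNA of bulk mPFC taken without an antibody. The groups were the subtypes SA, SA:ANH, ANH and RES and the group NS, with 6 IP and 6 Input libraries each and 60 in all. The series describes 5 days of social defeat stress, a model in which an aggressor repeatedly attacks the mouse, and the labels neither spell the group names out nor say which groups were defeated. Age, sex and the promoter or virus that drives the tag are not given in the labels. Separate animals behind the 6 libraries of a group are not stated either, so every p-value below speaks of spread among libraries alone, and part or all of that may be technical.

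Sodium channels open when the membrane depolarizes and carry the inward current that starts and spreads the action potential. An α subunit forms the pore by itself, and β subunits, small proteins that span the membrane once, change its gating and its number at the surface. In cortex, the Scn2a and Scn8a products are the main sodium channels of the axon initial segment of pyramidal neurons, the Scn1a product serves above all fast-spiking interneurons, and Scn3a is expressed most strongly before birth.

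Markers of cell types were read in both fractions first. The summed level of 6 excitatory neuron markers was 5090 ± 389 CPM in IP and 3420 ± 157 CPM in Input (SD, n = 30 each), where CPM stands for a count relative to its library total, adjusted by TMM. Of these, 5 rose in IP and Tbr1 fell (-0.47 ± 0.03, edgeR adjusted p = 2.08e-25). The 5 markers of layer 5 extratelencephalic neurons summed to 894 ± 200 CPM in IP and 525 ± 16.6 CPM in Input, and all 5 rose. The 5 markers of layer 6 corticothalamic neurons summed to 60.2 ± 10.3 CPM in IP and 266 ± 16.5 CPM in Input, and all 5 fell, with a median log2 fold change of -2.1. The 8 inhibitory neuron markers summed to 83 ± 30.3 CPM in IP, against 975 ± 39.5 CPM in Input, and all 8 fell. The 8 oligodendrocyte markers summed to 470 ± 334 CPM in IP and 3280 ± 647 CPM in Input, and all 8 fell. No marker of these 5 lists was at 0 in either fraction. The oligodendrocyte sum also differed between groups of a fraction, with 221 ± 9.11 CPM in SA IP, 161 ± 10.3 in SA:ANH IP, 681 ± 11.6 in ANH IP, 1010 ± 44 in RES IP and 274 ± 17.6 in NS IP. In Input the same sum was 3100 ± 35.3 CPM in SA, 2770 ± 89 in SA:ANH, 4290 ± 61.7 in ANH, 3680 ± 49 in RES and 2540 ± 54.3 in NS (SD, n = 6 each). The libraries of a group thus lay close together while the groups lay apart. Malat1, a nuclear RNA, was also uneven, with 933 ± 159 CPM in SA IP, 503 ± 140 in SA:ANH IP, 244 ± 47.5 in ANH IP, 323 ± 19 in RES IP and 241 ± 14.2 in NS IP, and its part in the differences between groups was not tested. In such tissue, fewer cells of a type and less RNA per cell cannot be told apart. Library totals were 19078906 to 27073413 counts. Principal components set NS IP replicate 1 and SA:ANH Input replicates 1 and 2 apart from the others, and results that change without these 3 libraries are named.

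Scn3a, Scn2a and Scn1a lie on chromosome 2, 53.1 kb apart for Scn3a and Scn2a and 503.3 kb apart for Scn2a and Scn1a, and their counts are not fully separate. The table places Scn3a at 65287462 to 65397971 (− strand), Scn2a at 65451115 to 65597791 (+ strand) and Scn1a at 66101122 to 66271184 (− strand). No build is named for these positions in the sources used here, and 0.754% of 38986 genes matched by symbol had the same start in GRCm38. Counts of these 3 genes were fractional in 60 of 60 libraries. Those of Scn8a, Scn2b, Scn3b and Scn4b were whole in every library. Of the 100-base windows of the longest Scn1a transcript, 1.07% occurred in Scn2a and 0.627% in Scn3a, and none occurred in Scn8a. The largest sharing was that of Scn3a, with 1.96% of its windows in Scn9a, whose counts were fractional in 59 libraries, and 0.996% of the Scn2a windows occurred in Scn3a. The reads were paired and 100 bases long. A read from within such a window can come from either gene, unless its partner read falls where the genes differ. The rule by which the deposited counts divided such reads is not known from the sources used here, so levels of Scn1a, Scn2a and Scn3a are uncertain by what the shared windows contribute.

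Scn2b and Scn4b are neighbours on chromosome 9, on the same strand and 8.3 kb apart in the table (Scn2b at 45029080 to 45041368, Scn4b at 45049693 to 45065450). Scn3b lies on the same chromosome at 40180513 to 40202914, and Scn8a is on chromosome 15 at 100767739 to 100943819. The 250 bases before the starts of Scn2b and Scn4b are shown because this adjacent pair went opposite ways in the pulldown. Sequences are from RefSeq on GRCm38.p6, at chr9:45117626-45117875 (+ strand) for Scn2b and chr9:45138374-45138623 (+ strand) for Scn4b, with each CG pair in capitals.
Scn2b promoter: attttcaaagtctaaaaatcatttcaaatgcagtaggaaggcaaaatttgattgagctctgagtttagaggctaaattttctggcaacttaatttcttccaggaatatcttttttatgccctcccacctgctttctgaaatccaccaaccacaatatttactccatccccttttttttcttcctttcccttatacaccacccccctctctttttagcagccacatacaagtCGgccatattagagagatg
Scn4b promoter: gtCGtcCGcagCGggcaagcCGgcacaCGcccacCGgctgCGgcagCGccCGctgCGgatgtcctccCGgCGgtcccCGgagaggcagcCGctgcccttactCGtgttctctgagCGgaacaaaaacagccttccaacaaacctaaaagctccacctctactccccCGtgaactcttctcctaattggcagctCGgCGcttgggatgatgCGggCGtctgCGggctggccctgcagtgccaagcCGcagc

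The Scn2b window held 1 CG pair and the Scn4b window 23. Over 32544 promoter windows of this length the median was 6, with 7.81% below Scn2b and 86.6% below Scn4b. No read or mark in these data bears on the promoters themselves.

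Levels of the α genes followed the order Scn2a, Scn8a, Scn1a, Scn3a in both fractions. Scn2a averaged 356 ± 23.9 CPM in IP and 129 ± 8.04 CPM in Input, and Scn8a 237 ± 12.3 and 110 ± 7.64 CPM. Scn1a averaged 58.2 ± 7.33 CPM in IP and 46.3 ± 5.87 CPM in Input, and Scn3a 25.2 ± 4.61 and 12.3 ± 2.4 CPM (SD, n = 30 each). Divided by transcript length, the level of Scn2a was 39.9 CPM per kilobase in IP and 14.4 in Input, that of Scn8a 20.7 and 9.59, that of Scn1a 6.94 and 5.53, and that of Scn3a 2.64 and 1.28. On that scale the summed α level was 70.2 ± 3.9 CPM per kilobase in IP and 30.8 ± 1 in Input, and no IP library overlapped an Input library. Scn2a made up 56.8 ± 1.58% of it in IP and 46.8 ± 2.68% in Input. Scn1a made up 9.87 ± 0.973% in IP and 17.9 ± 1.98% in Input. Scn8a took 29.6 ± 1.34% in IP and 31.1 ± 2.11% in Input, and Scn3a 3.76 ± 0.628% and 4.16 ± 0.803%. The α transcripts of the pulldown therefore held a larger share of Scn2a and a smaller share of Scn1a than those of bulk tissue, with no overlap between libraries for either gene.

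**Figure D1:**
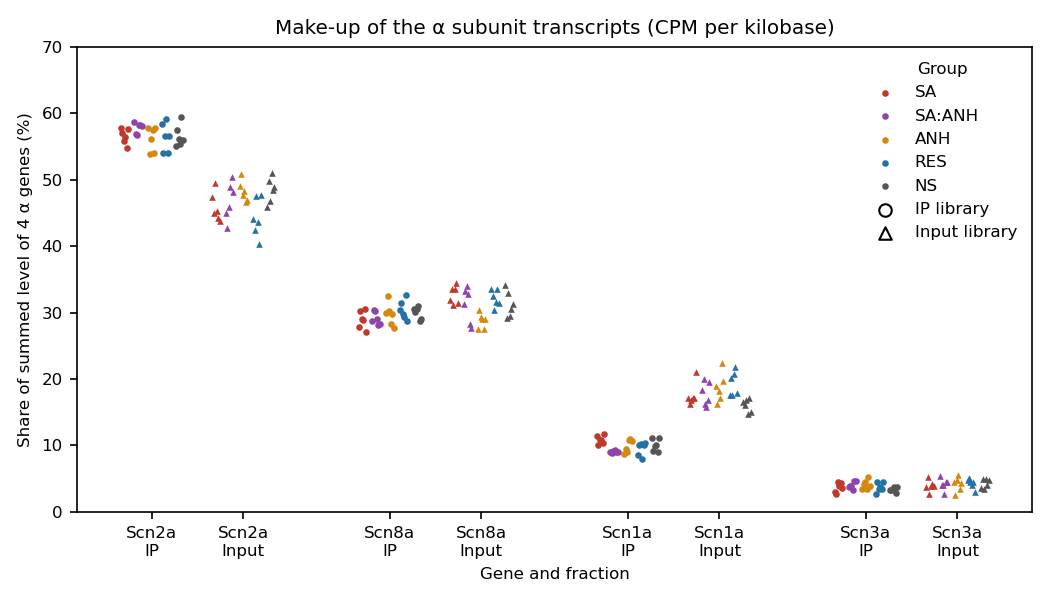
Share of each α gene in the summed level of the 4 α genes (percent of CPM per kilobase), 1 point per library, IP as circles left of Input as triangles, coloured by group. Scn2a lies between 53.9 and 59.4% in IP and between 40.3 and 51% in Input, while Scn1a lies between 7.89 and 11.7% in IP and between 14.7 and 22.4% in Input.

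Among the β genes, Scn2b and Scn3b stood at like levels and Scn4b was far lower. Scn2b averaged 128 ± 10.4 CPM in IP and 92.9 ± 4.82 CPM in Input, Scn3b 108 ± 7.92 and 87.2 ± 6.25 CPM, and Scn4b 3.06 ± 0.879 and 5.55 ± 1.13 CPM. Per kilobase, Scn2b stood at 27.6 in IP and 20 in Input, Scn3b at 26 and 21, and Scn4b at 0.614 and 1.11. Of the other α genes, Scn7a averaged 2.18 CPM in IP and 0.787 CPM in Input, and Scn9a 1.46 and 1.41 CPM. Scn4a, Scn10a and Scn11a, genes of muscle and sensory neurons, averaged under 0.2 CPM in both fractions.

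**Figure D2:**
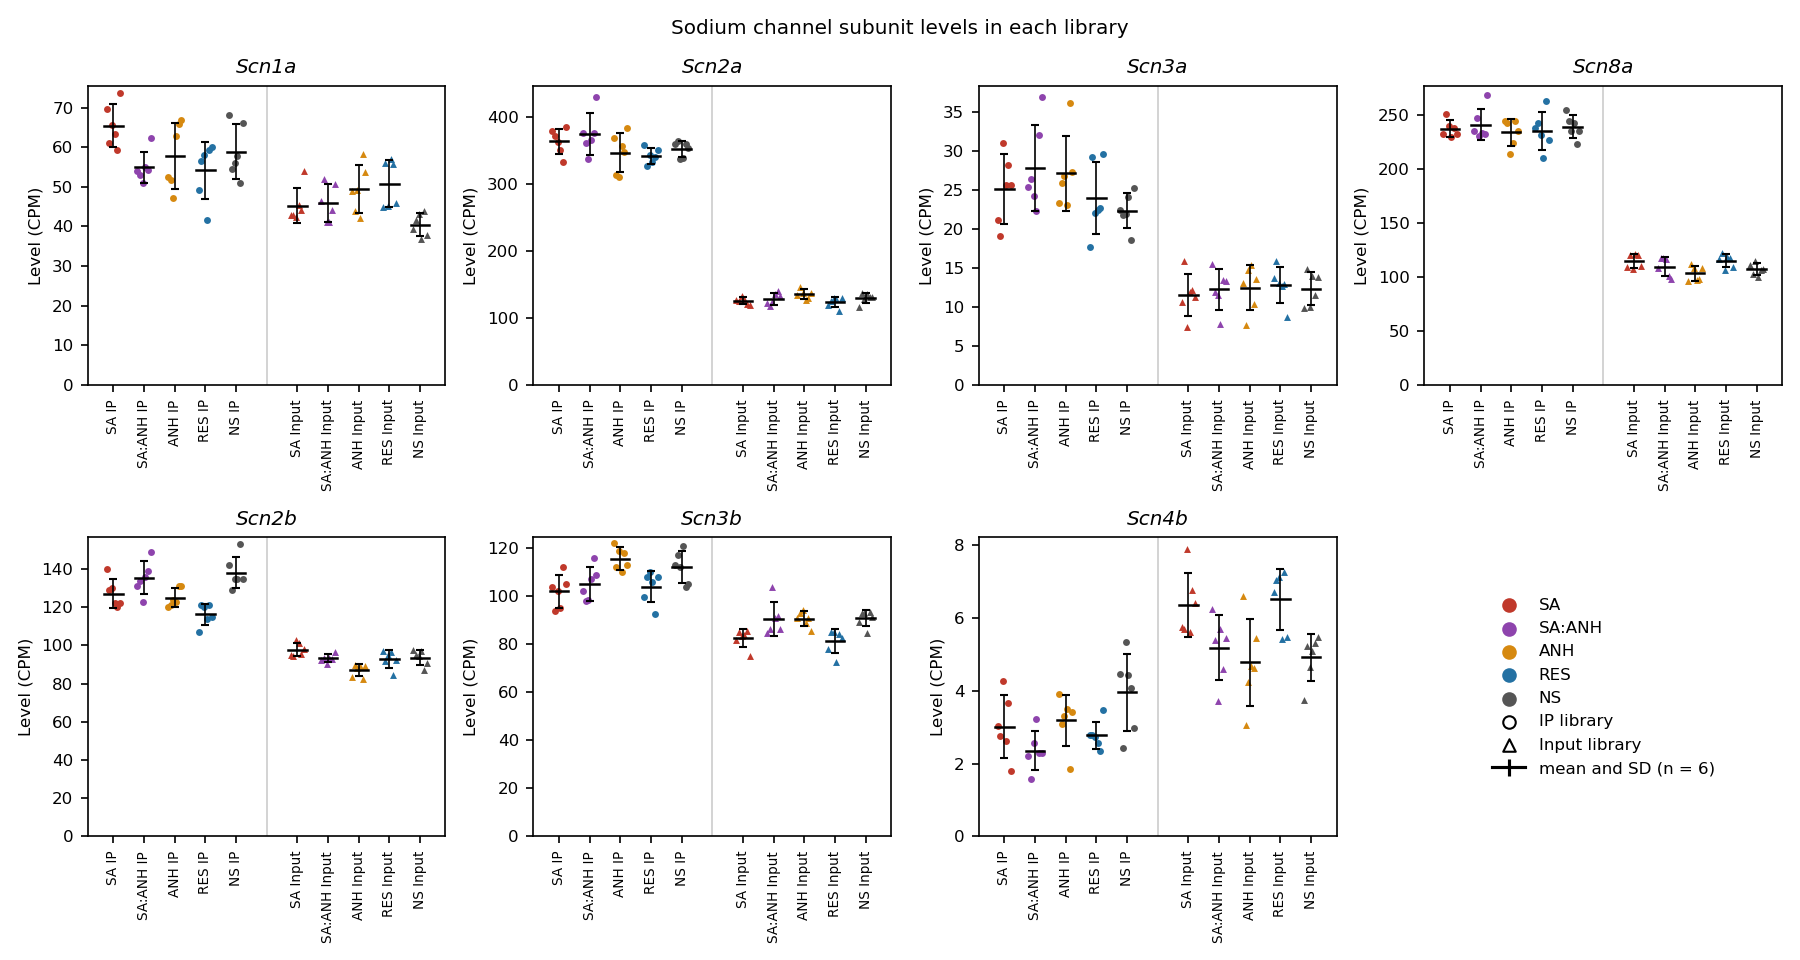
Level of each gene (CPM, axes from 0) in every library, with the 5 IP groups left of the 5 Input groups; lines are means and bars SD (n = 6). For Scn2a, Scn3a, Scn8a and Scn2b every IP library lies above every Input library, while for Scn4b the IP libraries lie lower, with overlap.

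To find which subunits the pulldown enriched, the 30 IP libraries were set against the 30 Input libraries. Of the 7 genes, 6 rose and 1 fell at an adjusted p below 0.05. In this comparison 75.4% of 18937 genes passed, 32.8% higher and 42.6% lower, so that passing by itself does not set these genes apart. Their median log2 fold change was 0.47, against -0.084 for all genes tested. All 7 kept their direction and passed under each of 6 other settings.

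Scn2a had the largest rise. It lay between 311 and 431 CPM in IP (median 359) and between 110 and 147 CPM in Input (median 129), and the log2 fold change was 1.47 ± 0.02 (SE; edgeR adjusted p = 4.22e-54). Only 1.61% of the genes tested rose further. Scn8a lay between 210 and 268 CPM in IP (median 235) and between 96.3 and 122 CPM in Input (median 109), a log2 fold change of 1.11 ± 0.02 (adjusted p = 5.72e-48). Scn3a lay between 17.6 and 36.8 CPM in IP (median 24.7) and between 7.46 and 15.8 CPM in Input (median 12.8), a log2 fold change of 1.04 ± 0.07 (adjusted p = 2.55e-20). These 3 α genes showed no overlap between fractions. The share of all genes without overlap is not given here, so lack of overlap does not set these genes or Scn2b apart.

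Scn1a was the α gene that changed least. It lay between 41.6 and 73.6 CPM in IP (median 57.8) and between 36.7 and 58.3 CPM in Input (median 44.6), and rose by 0.33 ± 0.04 (adjusted p = 5.99e-11). The fractions overlapped, and 29 of 30 IP libraries were above the Input median. Beside this, Pvalb, a marker of fast-spiking interneurons, averaged 3.89 ± 1.11 CPM in IP and 59.5 ± 5.58 CPM in Input; its part in the Scn1a level was not tested.

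Of the β genes, Scn2b and Scn3b rose and Scn4b fell. Scn2b lay between 107 and 153 CPM in IP (median 129) and between 82.4 and 103 CPM in Input (median 93.5), a log2 fold change of 0.47 ± 0.02 (adjusted p = 2.87e-31) with no overlap. Scn3b lay between 92.7 and 122 CPM in IP (median 108) and between 72.7 and 104 CPM in Input (median 86), a log2 fold change of 0.31 ± 0.02 (adjusted p = 2.34e-19); the fractions overlapped, though all 30 IP libraries were above the Input median. Scn4b, whose product can block the open pore and is tied to resurgent current, lay between 1.57 and 5.34 CPM in IP (median 2.88) and between 3.05 and 7.9 CPM in Input (median 5.47). Its log2 fold change was -0.87 ± 0.08 (adjusted p = 4.82e-14), and all 30 IP libraries were below the Input median. Scn2b and Scn4b, adjacent on the chromosome, thus lay on opposite sides of 0.

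The same contrast was taken inside each group. Scn2a, Scn3a, Scn8a, Scn2b and Scn3b passed as higher in IP in all 5 groups. The share of all genes that passed as higher was 25.1% in SA, 25.4% in SA:ANH, 23.8% in ANH, 24% in RES and 24.2% in NS, and the share that passed as lower 30.6%, 30%, 29%, 28.8% and 28.6% in the same order of groups. Scn1a passed in 4 groups and was smallest in RES, at 0.09 ± 0.09 (adjusted p = 0.401), against 0.54 ± 0.09 in NS (adjusted p = 5.44e-07). Scn4b passed as lower in 4 groups. Its log2 fold change was -1.07 ± 0.19 in SA, -1.13 ± 0.19 in SA:ANH, -0.59 ± 0.19 in ANH, -1.23 ± 0.19 in RES and -0.31 ± 0.19 in NS, where it did not pass (adjusted p = 0.158).

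**Figure D3:**
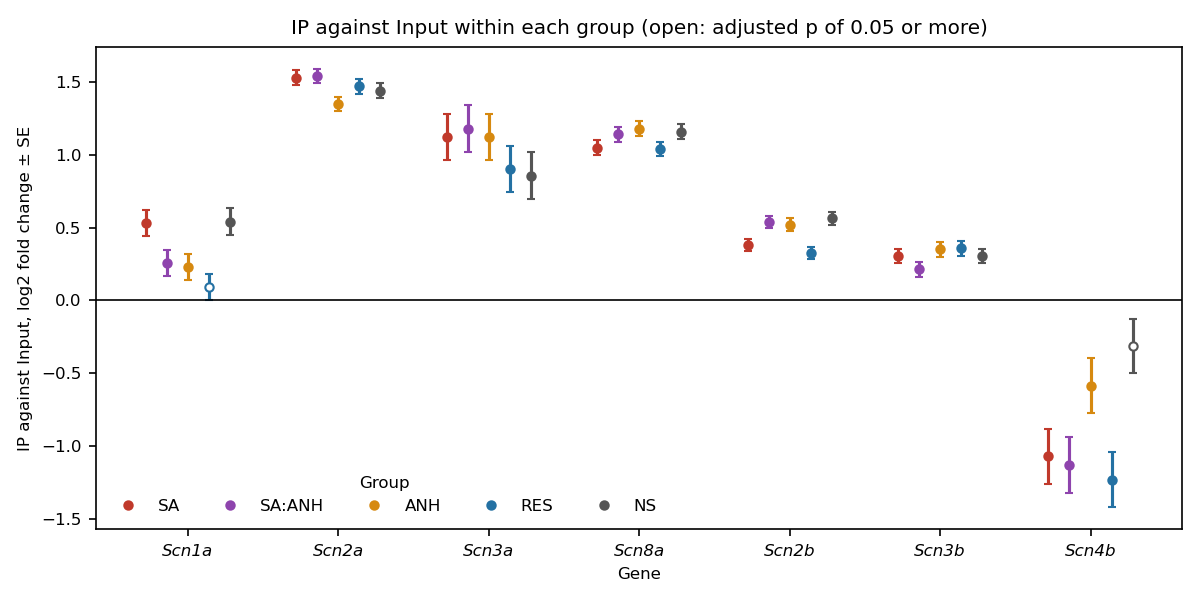
IP against Input as log2 fold change ± SE for each gene (x axis) inside each group (colours, subtypes left of NS); open points did not pass. Scn2a lies between 1.35 and 1.54, and Scn1a and Scn4b differ most between groups.

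Genes whose products anchor or regulate these channels were split. Of a list of 20 partners, among them proteins of the axon initial segment and node, 12 rose in IP, 6 fell and 2 did not pass. Of all genes, 32.8% passed as higher and 42.6% as lower. The median log2 fold change of the partners was 0.31, against -0.084 for all genes. The partner with the largest fall was Fgf11 (-2.73 ± 0.29, adjusted p = 7.81e-13), a fibroblast growth factor homologue that stays inside the cell, and Cntn2, an adhesion protein, fell by 0.78 ± 0.05 (adjusted p = 2.3e-20); both were named after their values were seen. Kcnq3, a potassium channel subunit anchored at the same site, rose by 1.54 ± 0.05 (adjusted p = 1.26e-36). Cntn1, a cell adhesion protein that binds β subunits, rose by 0.80 ± 0.02 (adjusted p = 5.06e-41). Ank3, which encodes ankyrin G and holds sodium channels in place, rose by 0.74 ± 0.03 (adjusted p = 1.82e-35), and Nrcam, another adhesion protein there, by 0.58 ± 0.02 (adjusted p = 6.55e-33).

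Each subtype was then set against NS within IP, which asks whether the subunits differ in the pulled-down RNA of the subtypes. Few of the 7 genes passed. None passed in SA, Scn4b fell in SA:ANH, Scn2b fell in ANH and Scn2b fell in RES. The share of the 16670 genes tested that passed was 16.6% in SA, 19.7% in SA:ANH, 7.4% in ANH and 4.36% in RES. Among 7 genes, 0 or 1 call lies near each of those shares and sets the subunits as a group apart from other genes in none of the 4 comparisons. Their median log2 fold change was 0.01 in SA, -0.0054 in SA:ANH, -0.036 in ANH and -0.11 in RES, against 0.016, 0.011, -0.001 and 0.007 for all genes in the same comparisons. The 4 comparisons share the NS libraries.

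Scn2b carried the clearest difference. In RES IP it lay between 107 and 121 CPM (median 117), against 129 to 153 CPM in NS IP (median 135). No RES library reached the lowest NS library, and the log2 fold change was -0.25 ± 0.05 (adjusted p = 0.00118), from means of 116 ± 5.62 CPM in RES and 138 ± 8.18 CPM in NS. How many of all genes lacked overlap between groups is not given here. Lack of overlap, in this comparison and those below, therefore sets no gene apart. The call itself did not hang on 1 setting. Scn2b in RES passed under all 7 other settings. In ANH IP Scn2b lay between 120 and 131 CPM (median 124), which overlaps NS, with a log2 fold change of -0.16 ± 0.05 (adjusted p = 0.0399). That call was lost without NS IP replicate 1 (adjusted p = 0.0748), without a filter on low counts (0.105) and in a fit of only the 12 libraries compared (0.0558). In SA IP Scn2b lay between 120 and 140 CPM (median 126), at -0.10 ± 0.05 (adjusted p = 0.17), and in SA:ANH IP between 123 and 149 CPM (median 135), at -0.01 ± 0.05 (adjusted p = 0.962). The order of the group means was therefore NS, SA:ANH, SA, ANH and RES.

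Scn4b was lower than in NS in each subtype's mean, and passed once. It lay between 1.57 and 3.22 CPM in SA:ANH IP (median 2.28), against 2.43 to 5.34 CPM in NS IP (median 4.26), with overlap. The log2 fold change was -0.72 ± 0.23 (adjusted p = 0.0225), from 2.36 ± 0.536 CPM in SA:ANH and 3.95 ± 1.07 CPM in NS, and all 6 SA:ANH libraries were below the NS median. Without a filter on low counts the adjusted p was 0.0723. The mean level was 3.02 ± 0.858 CPM in SA IP, 3.19 ± 0.713 in ANH IP and 2.78 ± 0.377 in RES IP, and these did not pass (adjusted p = 0.318, 0.48 and 0.251). The counts behind these values are few, 54.8 per library on average in SA:ANH IP and 94.3 in NS IP, so counting alone gives a CV of 13.5% and 10.3%.

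Scn3b lay below the NS median of 113 CPM in all 6 SA libraries and all 6 RES libraries of IP, with 102 ± 6.71 CPM in SA and 104 ± 6.62 CPM in RES, against 112 ± 6.76 CPM in NS. The groups overlapped, and the log2 fold changes of -0.12 ± 0.05 in SA (adjusted p = 0.134) and -0.10 ± 0.05 in RES (adjusted p = 0.312) did not pass.

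The α genes did not pass in any of the 4 comparisons with NS in IP. Scn8a had the most even level, with group means of 234 to 241 CPM, and its largest difference from NS was -0.04 (95% interval -0.132 to 0.0517, ANH). Scn2a differed most in SA:ANH, with 338 to 431 CPM (median 372) in SA:ANH IP, against 338 to 365 CPM (median 357) in NS IP, at 0.11 ± 0.05 (adjusted p = 0.0852). Scn3a differed most in SA:ANH too, with a mean of 27.8 ± 5.5 CPM in SA:ANH IP and 22.3 ± 2.26 CPM in NS IP, at 0.34 ± 0.13 (adjusted p = 0.0664; 95% interval 0.069 to 0.614). SA:ANH IP replicate 6 was the highest library of its group for both genes, with 431 CPM for Scn2a and 36.8 CPM for Scn3a. Scn1a differed most in SA, with 65.4 ± 5.41 CPM in SA IP and 58.9 ± 6.85 CPM in NS IP, at 0.17 ± 0.09 (adjusted p = 0.2). In SA, where 0 of 7 passed edgeR's test, 2 had an unadjusted p below 0.05 and 0 passed with DESeq2 or limma voom.

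Among other genes of the family, Scn7a rose in SA and RES; its test is given after its values were seen. Scn7a, which encodes a sodium-sensing channel, averaged 4.05 CPM in SA IP and 2.85 CPM in RES IP, against 0.971 CPM in NS IP (2.07 ± 0.45, adjusted p = 0.001, and 1.55 ± 0.44, adjusted p = 0.0371). Its level is low and no library of either subtype overlapped NS.

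**Figure D4:**
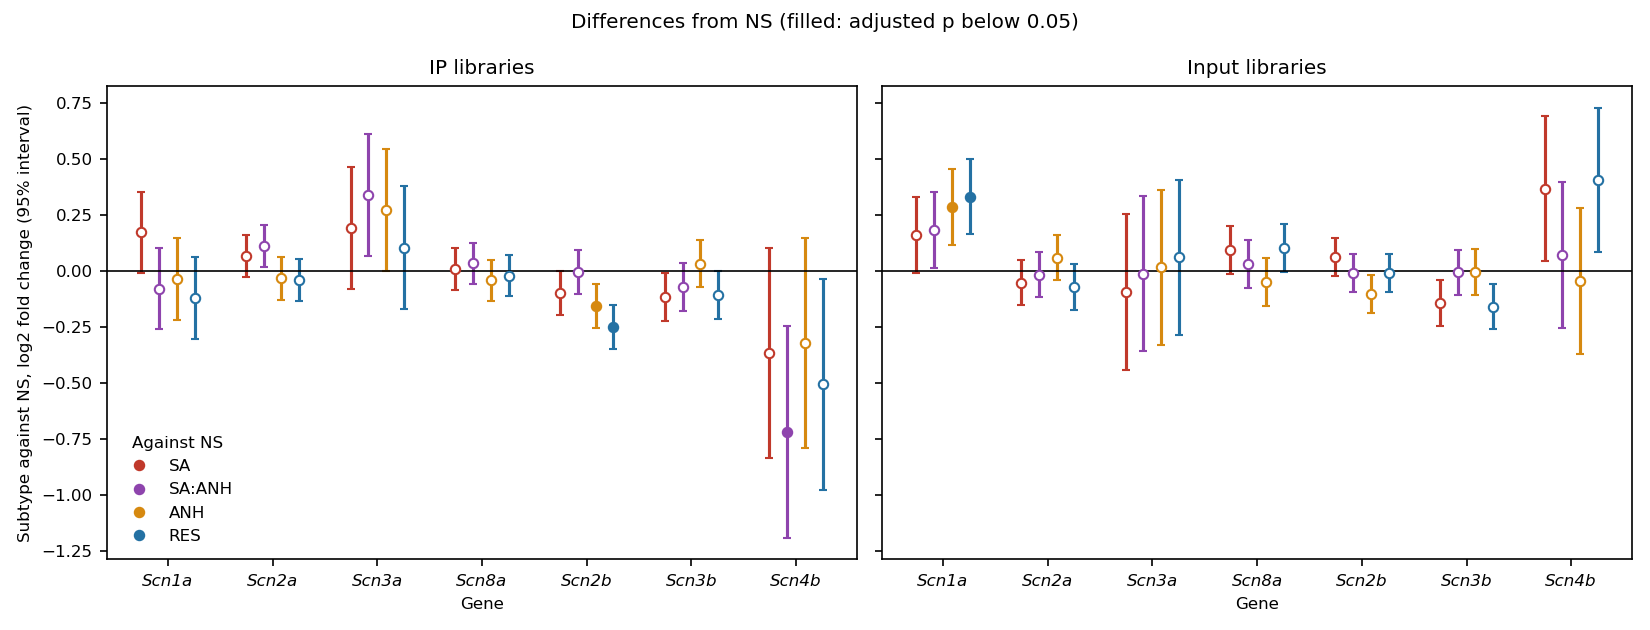
Log2 fold change of each subtype against NS with its 95% interval, in IP (left) and Input (right); filled points passed at an adjusted p below 0.05. In IP the filled points are Scn2b in ANH and RES and Scn4b in SA:ANH, all below 0, and in Input they are Scn1a in ANH and RES, both above 0.

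In Input, bulk tissue RNA, the gene that passed was Scn1a. It rose in ANH and in RES, and 0 of 7 passed in SA and SA:ANH. The share of the 18170 genes tested that passed was 2.83% in SA, 5.65% in SA:ANH, 2.62% in ANH and 3.23% in RES. In RES Input Scn1a lay between 45 and 57 CPM (median 50.8), against 36.7 to 43.8 CPM in NS Input (median 40.6), without overlap, and the log2 fold change was 0.33 ± 0.08 (adjusted p = 0.0167). It passed under all 7 other settings. In ANH Input it lay between 42.1 and 58.3 CPM (median 49.1), with overlap, at 0.29 ± 0.08 (adjusted p = 0.0481). This second call was lost with RLE factors (adjusted p = 0.0527) and without SA:ANH Input replicates 1 and 2 (0.0584).

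Scn1a was above the NS median in all 6 libraries of each subtype's Input. Its mean was 45.2 ± 4.41 CPM in SA Input and 45.9 ± 4.7 CPM in SA:ANH Input, against 40.4 ± 2.93 CPM in NS Input, at 0.16 ± 0.08 (adjusted p = 0.371) and 0.18 ± 0.08 (adjusted p = 0.208). Summed inhibitory markers were 973 ± 26.4 CPM in RES Input and 966 ± 16 CPM in ANH Input, against 1040 ± 17.3 CPM in NS Input. Pvalb averaged 62.5 ± 5.19 CPM in RES Input and 53.4 ± 1.94 CPM in ANH Input, against 59.2 ± 1.8 CPM in NS Input, and did not pass. Oligodendrocyte markers were higher in the same comparisons, with 7 of 8 passing in each; their part in the Scn1a level was not tested.

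Other subunits in Input did not pass against NS. Scn3b was lower in SA, with 82.5 ± 3.81 CPM in SA Input and 90.9 ± 3.46 CPM in NS Input (-0.14 ± 0.05, adjusted p = 0.13), and in RES, with 81.3 ± 4.98 CPM (-0.16 ± 0.05, adjusted p = 0.0716; 0.0258 with DESeq2). Scn4b averaged 6.36 ± 0.88 CPM in SA Input and 6.51 ± 0.839 CPM in RES Input, against 4.92 ± 0.638 CPM in NS Input (0.37 ± 0.16, adjusted p = 0.245, and 0.41 ± 0.16, adjusted p = 0.163), which is the other direction from its IP values. Of the 7 genes, 2 in SA and 1 in SA:ANH had an unadjusted p below 0.05, and 0 passed with DESeq2 or limma voom in either.

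Whether a difference from NS was unlike in IP and in Input was tested in the fit of both fractions. Of 28 such tests, 5 passed, all negative. Scn2b passed in SA, Scn4b in SA:ANH and Scn1a, Scn2b and Scn4b in RES, while 0 of 7 passed in ANH (1 with an unadjusted p below 0.05, and 0 with DESeq2 or limma voom). The share of 18937 genes that passed was 9.05% in SA, 15.2% in SA:ANH, 3.62% in ANH and 2.69% in RES. The 3 of 7 genes in RES are more than that share. The 7 genes were chosen with earlier results of these data known, and most of these calls depend on the setting, as given below. The count is therefore no independent result about the subunits.

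In RES the IP difference minus the Input difference was -0.45 ± 0.13 for Scn1a (adjusted p = 0.0339), -0.24 ± 0.06 for Scn2b (adjusted p = 0.0137) and -0.91 ± 0.27 for Scn4b (adjusted p = 0.0444). For Scn1a the Input level was higher in RES than in NS, while the IP mean was 54.1 ± 7.27 CPM in RES and 58.9 ± 6.85 CPM in NS (-0.12 ± 0.09, adjusted p = 0.585). For Scn2b the IP level fell in RES, and the Input mean was 92.8 ± 4.64 CPM in RES and 93.6 ± 4.02 CPM in NS (-0.01 ± 0.04, adjusted p = 0.952). For Scn4b neither part passed by itself. Scn4b gave -0.82 ± 0.27 in SA:ANH (adjusted p = 0.0264) and Scn2b -0.18 ± 0.06 in SA (adjusted p = 0.038). Scn4b in SA was of like size at -0.76 ± 0.27 and did not pass (adjusted p = 0.0604; 0.0446 with DESeq2). Without the 3 libraries named above, 1 of the 5 still passed, Scn2b in RES, while the adjusted p was 0.106 for Scn2b in SA, 0.141 for Scn4b in SA:ANH, 0.095 for Scn1a in RES and 0.0913 for Scn4b in RES. With RLE factors Scn2b in SA (0.0571) and Scn4b in RES (0.0512) were lost, with limma voom Scn4b in SA:ANH (0.0507), and the replicate block lost Scn2b in SA, Scn4b in SA:ANH and Scn4b in RES. Without a filter on low counts 0 of 28 passed (8 with an unadjusted p below 0.05). Oligodendrocyte markers in IP rose in ANH and RES (8 of 8 each) and fell in SA (4 of 8) and SA:ANH (6 of 8), and their part in these differences was not tested.

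The subtypes were also compared with each other. In IP, 7 of 42 tests passed. Scn2b was higher in SA:ANH than in RES, with 123 to 149 CPM in SA:ANH IP (median 135) and 107 to 121 CPM in RES IP (median 117), without overlap (0.24 ± 0.05, adjusted p = 0.000373; 13.8% of genes passed). Scn1a was higher in SA than in RES, with 59.3 to 73.6 CPM in SA IP (median 64.4) and 41.6 to 60.1 CPM in RES IP (median 57.2), with a slight overlap (0.29 ± 0.09, adjusted p = 0.0255; 11.6% of genes passed). Scn3b was lower in SA than in ANH, with 93.9 to 112 CPM in SA IP (median 103) and 110 to 122 CPM in ANH IP (median 115), with overlap (-0.15 ± 0.05, adjusted p = 0.0333; 23% of genes passed). These 3 differences passed under all 6 other settings.

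The other 4 calls were smaller or less stable. Scn2b rose in SA against RES (0.15 ± 0.05, adjusted p = 0.0375), a call lost with RLE factors (adjusted p = 0.0761), with DESeq2 (0.0547), without a filter (0.137) and with 12 libraries (0.112). Scn2a rose in SA:ANH against RES (0.15 ± 0.05, adjusted p = 0.0211) and against ANH (0.14 ± 0.05, adjusted p = 0.0239), and Scn2b rose in SA:ANH against ANH (0.15 ± 0.05, adjusted p = 0.0248), where 17.9% of genes passed. These 3 were lost with RLE factors (adjusted p = 0.0506, 0.0558 and 0.0544), without a filter and with 12 libraries. SA:ANH IP replicate 6 was the highest of its group for both genes. It had 431 CPM for Scn2a, where the next library had 377, and 149 CPM for Scn2b, where the next had 139. No setting left this library out, so how far these calls rest on it was not tested. None of the 7 passed in ANH against RES (9.21% of genes; 1 with an unadjusted p below 0.05; 0 with DESeq2 or limma voom) or in SA:ANH against SA (9.53% of genes). In SA:ANH against SA, where edgeR gave 1 unadjusted p below 0.05, Scn1a passed with DESeq2 (adjusted p = 0.0456), limma voom (0.0397) and 12 libraries (0.0185), at 54.9 ± 3.9 CPM in SA:ANH IP and 65.4 ± 5.41 CPM in SA IP.

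All 8 oligodendrocyte markers were lower in SA and SA:ANH than in ANH and RES within IP, with medians of -2.2 to -3.5 on the log2 scale. Layer 5 extratelencephalic neuron markers summed to 1160 ± 47 CPM in SA IP, 612 ± 24.2 in SA:ANH IP, 745 ± 22.6 in ANH IP, 933 ± 32.8 in RES IP and 1020 ± 36.8 in NS IP. Against NS, all 5 of these markers fell in SA:ANH IP, with a median of -0.73, and in ANH IP, with a median of -0.44. In SA IP 4 rose and 1 fell (median 0.29), and in RES IP 1 fell (median -0.12). Scn4b fell by 0.72 in SA:ANH IP and did not pass in SA, ANH or RES IP. The part of either marker list in the subunit differences was not tested.

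In Input, 1 of 42 tests between subtypes passed. Scn2b was higher in SA than in ANH, with 94.7 to 103 CPM in SA Input (median 96.7) and 82.4 to 89.8 CPM in ANH Input (median 88.8), without overlap (0.16 ± 0.04, adjusted p = 0.00812; 7.88% of genes passed), and passed under all 7 other settings. Of the 8 inhibitory neuron markers 1 rose in the same comparison, Pvalb (0.30 ± 0.05, adjusted p = 0.000181). Another 1 fell, and the median log2 fold change of that list was 0.035. Of the 8 oligodendrocyte markers 7 fell, and the part of either list in the Scn2b difference was not tested. None passed in the other 5 pairs, where the share of all genes that passed was 1.1% for SA against RES, 0.693% for SA:ANH against RES, 4.22% for ANH against RES, 3.54% for SA:ANH against SA and 1.64% for SA:ANH against ANH. In these pairs 1, 2, 5, 1 and 1 of the 7 genes had an unadjusted p below 0.05, and no call was made by limma voom. In ANH against RES Input DESeq2 called 2, Scn8a (-0.15 ± 0.05, adjusted p = 0.0478) and Scn3b (0.15 ± 0.05, adjusted p = 0.0291).

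With the groups set in order of their means, no neighbours were told apart by the test for any gene. Neighbours are the closest means by construction, so few calls were likely from the start and the orders below are descriptions. Of the 56 neighbouring pairs over 7 genes and both fractions, 0 passed edgeR's test, 2 had an unadjusted p below 0.05, and 0 passed with DESeq2 or limma voom. Scn1a ran SA, NS, ANH, SA:ANH, RES in IP and RES, ANH, SA:ANH, SA, NS in Input. Scn4b ran NS, ANH, SA, RES, SA:ANH in IP and RES, SA, SA:ANH, NS, ANH in Input. The highest mean exceeded the lowest by 3.03% for Scn8a, 9.55% for Scn2a, 13.3% for Scn3b, 19% for Scn2b, 20.9% for Scn1a, 24.7% for Scn3a and 67.8% for Scn4b in IP. Within groups, the CV between libraries was 10.1 to 19.8% for Scn3a in IP and 3.43 to 7.52% for Scn8a.

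Calls among the partner genes in IP followed the order of the share over all genes, 16.6% in SA, 19.7% in SA:ANH, 7.4% in ANH and 4.36% in RES. Of the 20 partners, 2 rose and 5 fell in SA, 4 rose and 8 fell in SA:ANH, 1 rose and 3 fell in ANH, and 0 rose and 2 fell in RES. In each subtype the calls were a larger part of the list than the share over all genes. The list was chosen with earlier results of these data known, so no conclusion is drawn from this. In SA:ANH Cntnap1, an axonal protein of the paranode, fell (-0.74 ± 0.12, adjusted p = 1.29e-05), as did Cntn2 (-0.76 ± 0.14, adjusted p = 9.34e-05), an adhesion protein beside the node, and Sptbn4 (-0.58 ± 0.11, adjusted p = 2e-04), the spectrin that links ankyrin G to actin. Cntn2 is also made by oligodendrocytes, whose markers fell in the same comparison (6 of 8). All 5 layer 5 markers fell there too, and Malat1 rose (1.08 ± 0.12, adjusted p = 8.96e-09); the part of each in these changes was not tested. S100a10, known in sensory neurons for carrying a sodium channel to the surface, rose in SA (0.45 ± 0.07, adjusted p = 8.1e-06) and fell in ANH (-0.26 ± 0.07, adjusted p = 0.0173). Nfasc, the adhesion protein neurofascin, fell in ANH (-0.39 ± 0.07, adjusted p = 0.00014).

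In Input edgeR called 0 partners up and 1 down in SA, 2 up and 0 down in ANH, and 0 in SA:ANH and RES (3 and 8 with an unadjusted p below 0.05), where 2.83%, 2.62%, 5.65% and 3.23% of all genes passed. Cntn1 fell in SA (-0.20 ± 0.05, adjusted p = 0.00859) and rose in ANH (0.17 ± 0.05, adjusted p = 0.0386). Nrcam rose in ANH (0.17 ± 0.04, adjusted p = 0.0214).

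Profiles over the 10 group means were compared by root mean square distance on the log2 scale, each gene centred on its own mean. Among the 7 genes the closest pair was Scn3a and Scn8a (0.106) and the farthest Scn2a and Scn4b (1.19). Scn2b and Scn4b, the adjacent pair, were 0.694 apart, and Scn2b and Scn3b 0.131. Among 9112 genes with a mean of at least 10 CPM, the nearest to Scn2a were Snrnp48 (0.04) and Scaper (0.05). Those nearest to Scn8a included Kcnb2 (0.05), to Scn3a Stum (0.04) and Sec62 (0.07), and to Scn1a Phf1 (0.07) and Gdap1l1 (0.07). Those nearest to Scn2b were Pclo (0.05) and Adam23 (0.05), and to Scn3b Sybu (0.04) and Hmgcs1 (0.04). For Scn4b the nearest were Cplx1 (0.15) and Ccnd3 (0.16). Scn4b itself averages below the limit of 10 CPM, so genes at its level were not searched. Its group means also rest on few counts, so its larger distances do not mark a singular profile. Each profile spans both fractions, so these distances largely restate the differences between IP and Input given above. A distance over 10 group means is a description and says nothing of shared function.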

How the data were processed

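RNA was measured in 30 IP and 30 Input libraries, prepared with SMART-Seq v4 and TruSeq kits and sequenced as paired reads of 100 bases, per the labels' protocols. The authors deposited expected counts (estimates, so a gene's value can be fractional); 88.4% of values were whole within 1e-06. Trimmomatic 0.32, TopHat2 2.0.13, Bowtie2 2.2.3 and mm10 were used, per the submitters' processing notes. The counting tool, its strand setting and its handling of shared reads are not named in the sources used here, so reads of a gene and an antisense gene over it cannot be told apart; such genes over Scn1a, Scn2a, Scn3a, Scn2b and Scn3b had 4 to 298 counts in all. Amplified reads without molecular identifiers are not independent molecules, so counting CVs cover counting error only.

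Every value column was matched to a sample by name (0 unmatched). Counts were rounded, filtered with filterByExpr (minimum count 10) and tested with edgeR 4.0.16 (R 4.3.3): quasi-likelihood test, TMM, Benjamini-Hochberg over all genes, threshold 0.05. IP (16670 genes) and Input (18170) were fitted separately with 5 groups, and both fractions (18937) with 10. All adjusted p-values are from this test unless another is named; SE is the log2 fold change over the root of F. The fits were tested on simulated data with less spread between libraries than these, and only SA against NS in IP was scored. Library totals of 19078906 to 27073413 and a common biological CV of 23.7% in IP and 18.6% in Input set the precision. CPM use the TMM factors of the joint fit, and levels between genes were divided by the deposited gene length, which equalled the longest GENCODE M21 transcript for all 14 family genes.

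The 7 genes are named in every comparison, other family genes by level, up to 4 partners with the smallest p per comparison, and 2 nearest profiles per gene (predicted genes left out). Members and lists were chosen with earlier results of these data known. Alternatives were RLE factors, DESeq2 1.42.0, limma 3.58.1 voom with quality weights, no filter, a replicate block, only the 12 libraries compared and, added after the data were seen, leaving out 3 libraries. No pair of libraries in a group agreed within sampling noise (chi-square per gene 7.02 to 23.2 over 150 pairs). Results for some other genes and 1 sequence are not reported here.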

Additional observations from a re-analysis of the deposited data

Results flagged for a closer look

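In 5 of 70 groups of 6 libraries, 1 library stood apart by Dixon's criterion, and chance gives about 1 in 20 groups. Scn1a was 62.3 CPM in SA:ANH IP replicate 6, where the next library had 54.9 CPM, and 54 CPM in SA Input replicate 6, where the next had 45.4. Scn3a was 36.1 CPM in ANH IP replicate 5, where the next had 27.3. Scn3b was 75.2 CPM in SA Input replicate 6, where the next lowest had 81.9, and 104 CPM in SA:ANH Input replicate 3, where the next had 91.7.

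The difference from NS was unlike in IP and Input for 5 combinations of gene and subtype (edgeR's quasi-likelihood test, IP difference minus Input difference, log2). Scn2b gave -0.184 in SA (adjusted p = 0.038) and -0.24 in RES (adjusted p = 0.0137). Scn4b gave -0.822 in SA:ANH (adjusted p = 0.0264) and -0.913 in RES (adjusted p = 0.0444). Scn1a gave -0.45 in RES (adjusted p = 0.0339).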

How the results depend on the processing

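No direction of a call turned under any setting, and all 7 calls of IP against Input held under RLE factors, DESeq2, limma voom, no filter, the replicate block and without the 3 libraries named. In the tests against NS in IP, 3 of 28 passed, and 1 without a filter. Between subtypes in IP, 7 of 42 passed, against 3 with RLE factors, 3 without a filter and 4 with only 12 libraries. Against NS in Input, 2 of 28 passed, against 1 with RLE factors and 1 without SA:ANH Input replicates 1 and 2. Between subtypes in Input, 1 of 42 passed, against 4 with DESeq2. For the difference between fractions 5 of 28 passed, against 3 with RLE factors, 0 without a filter (8 with an unadjusted p below 0.05) and 1 without the 3 libraries. Without the filter, p is adjusted over more genes (31622 in IP, against 16670), and leaving out libraries also changes which genes pass the filter. The cause of the other changes was not tested. Levels in CPM without TMM factors moved by less than 1 SD for all 14 gene and fraction combinations.

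Replicate numbers gave no sign of pairing: equal numbers in different groups gave correlations of at most 0.034 in IP and 0.09 in Input, and of at most 0.044 between fractions. Low correlations cannot exclude that libraries of equal number share an animal, since noise of each library could hide it. With the replicate block the counts were 7 for IP against Input, 4 and 7 in IP, 3 against NS and 3 between subtypes in Input, and 2 for the difference between fractions. The block lost the difference between fractions for Scn2b in SA (adjusted p = 0.0697), Scn4b in SA:ANH (0.053) and Scn4b in RES (0.0925). The calls gained were Scn2a in SA:ANH against NS in IP, Scn3b in RES against NS in Input, and Scn3b in ANH against RES and SA against ANH in Input. Among neighbouring groups 1 of 56 pairs then passed (Scn3b, SA against ANH, Input).

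Over all genes, SA:ANH against NS in Input fell to 207 calls without SA:ANH Input replicates 1 and 2, against 1026 with them, and SA:ANH against SA to 147, against 643. SA:ANH against ANH gave 140, against 298. With DESeq2, SA, ANH and RES against NS in Input gave 812, 726 and 894 calls, against 515, 476 and 587, and SA against RES, SA:ANH against RES, ANH against RES and SA:ANH against ANH gave 422, 244, 1213 and 560, against 200, 126, 766 and 298. With only 12 libraries SA against RES, SA:ANH against RES, SA:ANH against SA and SA:ANH against ANH gave 117, 77, 276 and 173, and SA against RES without a filter gave 131. Depth limits Scn4b most, with a counting CV of 10.3 to 13.5% in IP groups.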
